A study of Mus musculus with 6 samples.

Results

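Interferon-stimulated genes are described here in whole tumours of the mouse bladder cancer line NA13. The set holds 39 genes chosen by name from what is known of the interferon response, and 39 of 39 were found by Entrez number among the 15295 genes of the count table. All 39 passed the filter on low counts, as did 14498 genes in all. There were 3 tumours labelled as made from NA13 cells with an shRNA against Ddr2 and 3 with a scrambled shRNA, which serve as controls. All 6 tumours received IgG, and the strain is given as C57BL/6 throughout. Age and sex of the hosts are not given in the labels, nor is it said that each tumour had its own host animal. The p-values therefore cover only the variation among these 6 samples, some of which may be technical. Whole tumours hold host cells as well as tumour cells, and fewer cells of a type cannot be told apart from less RNA per cell.

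Interferons are cytokines that switch cells to an antiviral and antimicrobial state. Type I interferons signal through Ifnar1 and Ifnar2 and the kinases Jak1 and Tyk2 to a complex that holds Stat2 and Irf9 and binds the interferon-stimulated response element (ISRE). Interferon gamma, made mainly by T cells and NK cells, signals through Ifngr1 and Ifngr2 and the kinases Jak1 and Jak2, and many of its targets carry a gamma-activated site (GAS). In tumours, interferon gamma from infiltrating lymphocytes is known to raise antigen presentation and chemokine genes in tumour and host cells. The 39 genes were sorted by role into 8 GTPases known mainly as interferon gamma targets (Gbp and Irg families), 19 type I antiviral effectors, 4 transcription factors, 5 nucleic acid sensors and their partners, and 3 genes of a complex for ADP-ribosylation and ubiquitin transfer. Many of them respond to both kinds of interferon, so the classes are not exclusive.

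Promoter windows are shown first, for GTPases with wide spread between tumours (Gbp2, Gbp3, Igtp), for antiviral effectors (Isg15, Ifit3), and for the member with the narrowest spread (Trim25). Each window is the 250 bases before a RefSeq gene start on GRCm38.p6, written 5′ to 3′ on the gene's own strand, and capitals mark the ISRE core, which is GAAA, any 2 bases and GAAA again, or on the other strand TTTC, any 2 bases and TTTC.
Gbp2: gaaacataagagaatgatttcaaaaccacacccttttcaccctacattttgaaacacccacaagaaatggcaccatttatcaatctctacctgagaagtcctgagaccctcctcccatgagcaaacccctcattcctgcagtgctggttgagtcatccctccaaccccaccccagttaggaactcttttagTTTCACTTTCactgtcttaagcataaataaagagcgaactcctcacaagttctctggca
Gbp3: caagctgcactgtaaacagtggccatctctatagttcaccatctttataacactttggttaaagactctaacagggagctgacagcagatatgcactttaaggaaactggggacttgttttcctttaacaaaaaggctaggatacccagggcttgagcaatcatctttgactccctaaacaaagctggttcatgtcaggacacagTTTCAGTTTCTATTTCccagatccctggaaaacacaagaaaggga
Igtp: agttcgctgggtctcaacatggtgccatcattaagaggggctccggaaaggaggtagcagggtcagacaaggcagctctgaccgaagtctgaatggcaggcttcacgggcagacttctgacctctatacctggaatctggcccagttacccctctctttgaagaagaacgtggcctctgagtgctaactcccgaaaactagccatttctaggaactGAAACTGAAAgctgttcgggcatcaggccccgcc
Isg15: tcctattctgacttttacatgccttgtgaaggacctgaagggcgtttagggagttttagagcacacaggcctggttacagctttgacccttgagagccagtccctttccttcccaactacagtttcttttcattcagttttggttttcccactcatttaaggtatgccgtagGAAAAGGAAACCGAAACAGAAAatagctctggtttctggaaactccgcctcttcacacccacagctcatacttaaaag
Ifit3: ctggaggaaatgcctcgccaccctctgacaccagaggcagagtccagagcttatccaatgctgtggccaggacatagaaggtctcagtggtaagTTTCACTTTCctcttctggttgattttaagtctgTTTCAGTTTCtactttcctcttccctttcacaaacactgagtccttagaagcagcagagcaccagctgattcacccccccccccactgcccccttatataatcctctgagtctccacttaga
Trim25: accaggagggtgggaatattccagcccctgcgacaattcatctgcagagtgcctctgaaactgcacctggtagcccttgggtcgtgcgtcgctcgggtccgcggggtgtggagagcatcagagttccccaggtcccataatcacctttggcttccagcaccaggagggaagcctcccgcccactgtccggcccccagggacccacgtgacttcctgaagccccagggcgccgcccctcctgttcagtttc
The Gbp2 window lies at chr3:142620413-142620662 (plus strand), the first Gbp3 window at chr3:142559794-142560043 (plus), and the Igtp window at chr11:58199306-58199555 (plus). The Isg15 window lies at chr4:156200819-156201068 (minus strand), the Ifit3 window at chr19:34583279-34583528 (plus), and the Trim25 window at chr11:88999153-88999402 (plus). The first base of the core was 59 bases before the start in Gbp2 and 34 in Igtp. Gbp3 held matches at 45 and 39 bases, Ifit3 at 156 and 122, and Isg15 held 3 that overlap, at 78, 72 and 66. A match to the GAS letters TTCNNNGAA, which read the same on both strands, stood 45 bases before the Igtp start, next to its ISRE core. RefSeq places the starts of Gbp2, Gbp3 and Trim25 within the gene spans of GENCODE, so those windows reach past the GENCODE start.

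The RefSeq table held windows for 30 of the members. The ISRE core was in at least 1 window of 7 of 7 GTPase genes with a window, and of 7 of 15 antiviral effectors. Of all 32851 windows of this length, 2.98% held it, against 41.7% of the 36 windows of members. The GAS letters were in windows of 4 of 7 GTPase genes and 5 of 15 antiviral effectors, and in 7.02% of all windows. In Bst2 the matches to the motifs overlapped. A match describes the letters only, and a window without one says nothing of the factor.

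The libraries held 15560571 to 19522985 counts. The members had at least 32 counts in every library, and their levels ran from 2.20 to 414 CPM (CPM, the count scaled to a common library total, here with TMM). Ddr2, the collagen receptor targeted by the shRNA, stood at 4.84, 19.0 and 28.6 CPM in the libraries labelled shDdr2 1 to 3, against 6.42, 16.7 and 20.5 CPM in control 1 to 3. Its level in whole tumours thus did not bear out the labels, and directions are between libraries as labelled. The level of Ddr2 in the tumour cells alone was not measured, so these values do not show whether it was reduced there. Control 1 stood apart in its blood genes, with 596 CPM summed over 4 erythrocyte markers against 46.1 to 56.0 CPM in the other controls. The 5 skeletal muscle markers summed to 663, 2195 and 299 CPM in the libraries labelled shDdr2 1 to 3, against 7.82, 42.0 and 64.7 CPM in control 1 to 3, so the tumours also differed in host tissue. The part of these in the values of the members was not tested. Of 7 epithelial markers, 6 had lower fitted values in the libraries labelled shDdr2 and 0 were called. Epcam, Krt8 and Krt18 were lower there without overlap between the groups, as were 2.11% of all genes, while the abundant basal keratins Krt5 and Krt14 overlapped. Krt8 had only 4 counts in the library labelled shDdr2 1. Of other marker lists, S100a8, S100a9, Pparg and Alas2 were also lower without overlap. All 5 skeletal muscle markers were higher without overlap, as were 2.21% of all genes. By edgeR 0 markers of these lists were called. DESeq2 called 3 muscle markers higher and Pparg lower, against 0.235% of all genes higher and 0.0414% lower. The mean log2 CPM of the 7 epithelial markers was 7.10, 8.32 and 8.30 in the libraries labelled shDdr2 1 to 3, against 8.83, 8.56 and 8.37 in control 1 to 3.

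No interferon-stimulated gene was found to differ between the shRNA groups. By edgeR's quasi-likelihood test with Benjamini-Hochberg adjustment over all genes, 0 of 39 members were called, against 0.0% of all genes higher and 0.0% lower. At an unadjusted edgeR p under 0.05, 0 of 39 members passed, against 0.993% of all genes higher and 0.448% lower. The groups overlapped in 39 of 39 members, whereas groups did not overlap in 2.21% of all genes on the higher side and 2.11% on the lower side. DESeq2 also called 0 members, with 0.235% of all genes called higher and 0.0414% lower. The lowest unadjusted edgeR p among members was 0.173, for Oasl1.

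**Figure D1:**
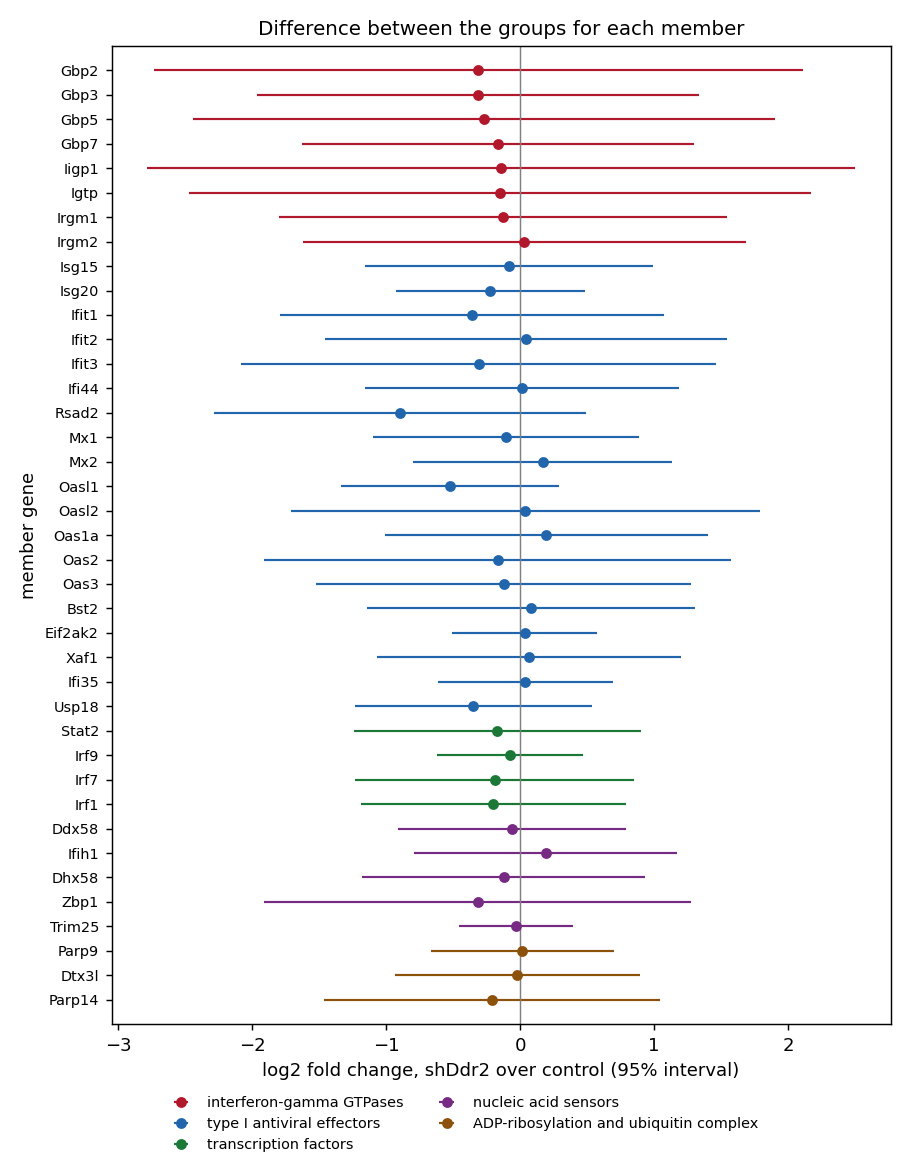
Fitted log2 fold change of each of the 39 members (x axis, tumours labelled shDdr2 over control tumours), with points for the estimate and bars for its 95% interval, coloured by role. Every interval includes 0, and the widest belongs to Iigp1 (2.64 to either side) and the narrowest to Trim25 (0.43).

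Fitted log2 fold changes of the members ran from -0.89 to 0.20, with a median of -0.12, beside a median of 0.04 over all genes. Values were higher in the libraries labelled shDdr2 for 12 members and lower for 27. However, limma on voom weights gave 22 higher and 17 lower, and edgeR with the replicate number as a block gave 21 and 18. The split of the main fit also turned on single tumours. Without control 2, 37 of 39 members had higher values in the libraries labelled shDdr2, and without control 1 only 2 of 39 did. The 95% intervals reached 1.17 to either side of the estimate in the median member, so a smaller difference could not be told from 0 in that member.

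The members instead separated tumours of the same group. Control 2 held the highest level of 33 of 39 members (84.6%, against 10.6% of all genes tested). Control 1 held the lowest level of 22 of 39 (56.4%, against 14.4% of all genes). Levels in control 2 exceeded those in control 1 in 37 of 39 members, by a median of 3.15-fold. Of all genes, 7251 were higher in control 2 and 7247 in control 1. The level in the highest tumour was 3.55 times that in the lowest for the median member, against 2.04 times for the median of all genes. The SD of log2 CPM was larger among controls than among tumours labelled shDdr2 in 30 of 39 members, which was so in 28.3% of all genes. The tumours with the most extreme levels of these genes were thus both controls.

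**Figure D2:**
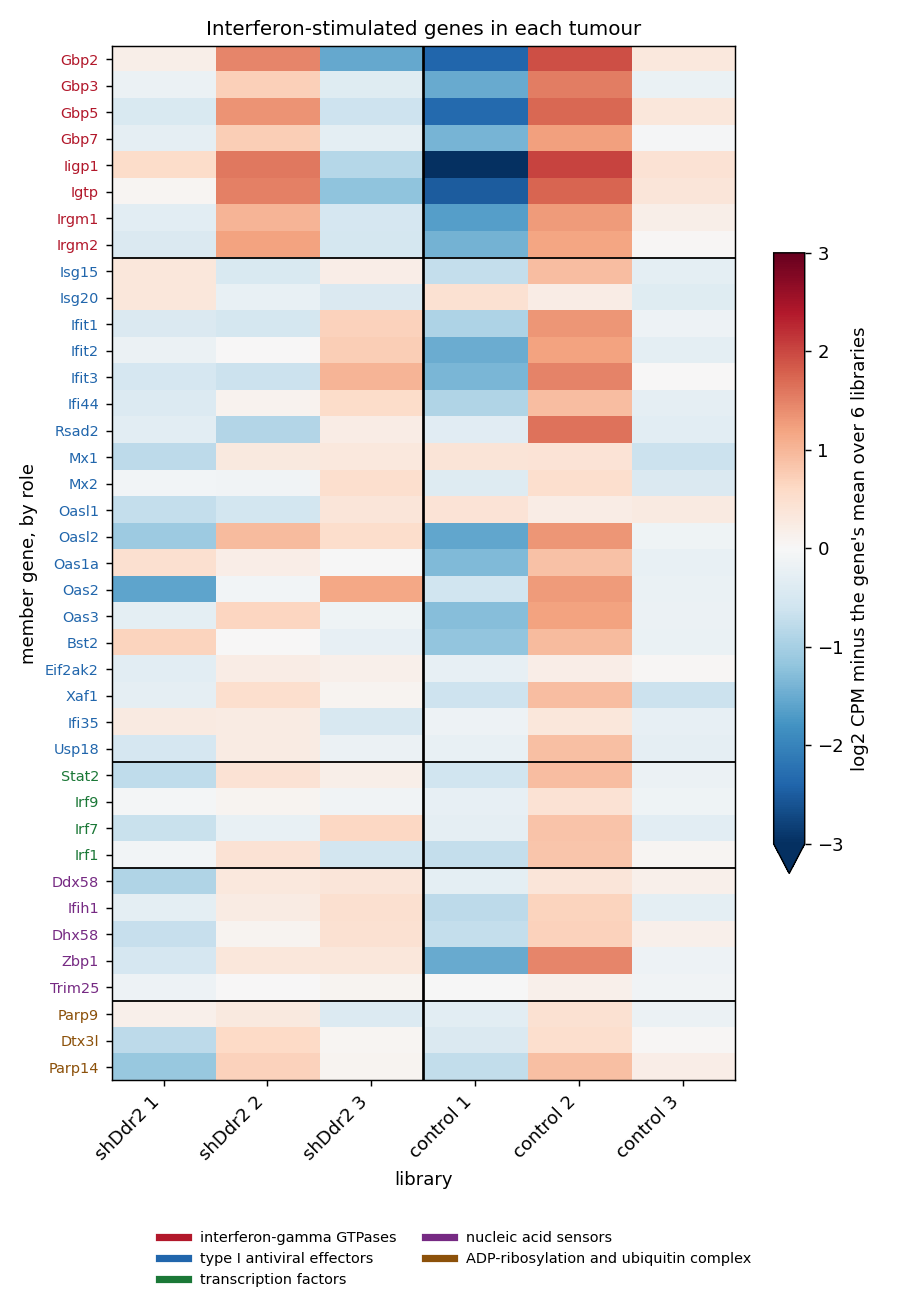
Log2 CPM of each of the 39 members (rows, by role) in each library (columns, tumours labelled shDdr2 left of the line and controls right), minus the gene's mean over the 6 libraries; the colour scale ends at -3 and 3. Control 2 is the highest library for 33 members and control 1 the lowest for 22, and the contrast is strongest in the GTPase rows at the top.

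The interferon gamma GTPases varied most between tumours. These proteins attack the membranes of vacuoles that hold intracellular pathogens. The highest tumour was 12.4 times the lowest in the median GTPase gene, with a range from 6.17 times for Gbp7 to 53.9 times for Iigp1. Control 1 was the lowest tumour for 8 of 8 GTPase genes. Control 2 was the highest for 7 of 8, and the library labelled shDdr2 2 was the highest for Irgm2.

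Gbp2 (Entrez 14469, chromosome 3, 142620602 to 142638008, plus strand), a guanylate-binding protein, was the most abundant GTPase gene in CPM. It stood at 121, 299.8 and 37.4 CPM in the libraries labelled shDdr2 1 to 3, against 20.7, 414 and 134 CPM in control 1 to 3. The control tumours thus held both the lowest and the highest level. Its means were 153 ± 134 and 189.8 ± 203 CPM (SD, n = 3 each), a log2 fold change of -0.31 (SE 1.03).

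Iigp1 (Entrez 60440), an immunity-related GTPase that loads onto the vacuoles of parasites, had the widest spread of all members. It stood at 59.2, 121 and 22.4 CPM in the libraries labelled shDdr2 1 to 3, against 3.07, 166 and 54.8 CPM in control 1 to 3. The level in control 1 was far under that in every other tumour. The log2 fold change was -0.14 (SE 1.13), and it was 0.88 on voom weights.

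Igtp (Entrez 16145, also Irgm3; chromosome 11, 58199556 to 58207591, plus strand) regulates the loading of other immunity-related GTPases. It stood at 36.5, 99.7 and 15.2 CPM in the libraries labelled shDdr2 1 to 3, against 6.20, 117 and 44.9 CPM in control 1 to 3. Gbp3 (Entrez 55932, chromosome 3, 142560026 to 142573209, plus strand), another guanylate-binding protein, stood at 28.2, 52.4 and 24.9 CPM, against 11.2, 92.1 and 28.0 CPM in the same order. Like Gbp2, both genes were highest in control 2, next in the library labelled shDdr2 2, and lowest in control 1. Gbp3 had the smallest edgeR p of the GTPase genes, which was 0.666 before adjustment. The other members of the class, Gbp5, Gbp7, Irgm1 and Irgm2, spread by 6.17 to 16.6 times between tumours.

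**Figure D3:**
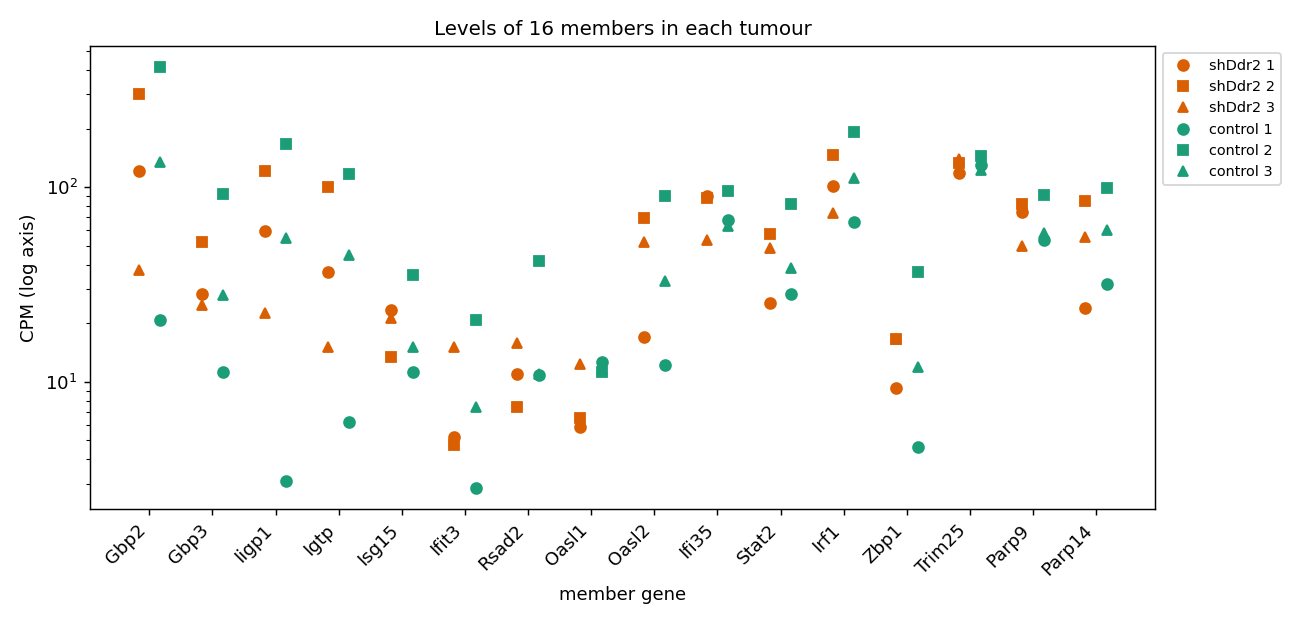
CPM on a log axis of 16 members in each tumour, with tumours labelled shDdr2 in orange left of the controls in green, and marker shapes for the replicate numbers 1 to 3. Iigp1 runs from 3.07 CPM in control 1 to 166 CPM in control 2, whereas Trim25 lies between 118 and 145 CPM in the 6 tumours.

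The type I antiviral effectors varied less and in a partly different order. The highest tumour was 3.55 times the lowest in the median effector, from 1.45 times for Eif2ak2, the kinase PKR that stops translation, to 7.40 times for Oasl2. Control 2 was the highest tumour for 16 of 19 effectors, and control 1 was the lowest for 9 of 19.

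Isg15 (Entrez 100038882, chromosome 4, 156199424 to 156200818, minus strand) encodes a ubiquitin-like protein that is joined to other proteins. It stood at 23.4, 13.4 and 21.3 CPM in the libraries labelled shDdr2 1 to 3, against 11.2, 35.4 and 15.0 CPM in control 1 to 3. Unlike the GTPase genes, it was lowest among the libraries labelled shDdr2 in number 2. Ifit3 (Entrez 15959, chromosome 19, 34583531 to 34588731, plus strand), a partner of the RNA-binding protein Ifit1, stood at 5.20, 4.73 and 15.04 CPM, against 2.86, 20.7 and 7.42 CPM. It too was lowest in number 2 among the libraries labelled shDdr2. Isg15 and Ifit3 do not stand for the class in this. Over the 19 effectors, number 2 exceeded number 1 in 10 and number 3 in 9.

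Rsad2 (Entrez 58185, chromosome 12, 26442746 to 26456452, minus strand), which encodes viperin, an enzyme that makes a chain-terminating nucleotide, had the fold change farthest from 0 of all members. It stood at 10.98, 7.41 and 15.9 CPM in the libraries labelled shDdr2 1 to 3, against 10.8, 41.9 and 10.9 CPM in control 1 to 3. Control 2 alone stood above the rest. The log2 fold change was -0.89 (SE 0.59), with an unadjusted edgeR p of 0.173, and it was 0.067 without control 2.

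Oasl1 (Entrez 231655, chromosome 5, 114923240 to 114937915, plus strand), an oligoadenylate synthetase-like protein that restrains Irf7 translation in mice, stood at 5.85, 6.53 and 12.3 CPM in the libraries labelled shDdr2 1 to 3, against 12.7, 11.2 and 11.6 CPM in control 1 to 3. The controls were close to each other, and the library labelled shDdr2 3 lay among them. Its means were 8.22 ± 3.54 and 11.8 ± 0.770 CPM (SD, n = 3 each), a log2 fold change of -0.52 (SE 0.35). Without the library labelled shDdr2 3 it was the 1 member with an unadjusted edgeR p under 0.05 (log2 fold change -0.93, p of 0.0208, adjusted p = 0.988). In that fit 1.24% of all genes passed on the lower side.

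Oasl2 (Entrez 23962, chromosome 5, 114896936 to 114912234, plus strand), its paralogue, stood at 16.9, 69.5 and 52.4 CPM, against 12.2, 90.2 and 32.9 CPM in control 1 to 3. Ifi35 (Entrez 70110, chromosome 11, 101448407 to 101458698, plus strand), an interferon-induced leucine zipper protein, was the effector with the highest mean CPM. It stood at 90.4, 88.4 and 53.4 CPM, against 67.6, 95.2 and 63.3 CPM. The levels of Ifi35 lay within 1.78-fold of each other. Mx1 and Mx2, dynamin-like antiviral GTPases that are defective in most laboratory mouse strains, stayed within 2.28-fold and 1.93-fold across the tumours.

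Set side by side, the classes agreed on the extreme tumours and differed in between on the log scale. The list mean of log2 CPM over the 8 GTPase genes was 5.12, 6.43 and 4.49 in the libraries labelled shDdr2 1 to 3, against 3.14, 6.81 and 5.41 in control 1 to 3. Over the 19 antiviral effectors it was 3.75, 4.03 and 4.29, against 3.40, 4.91 and 3.79. Control 2 was highest and control 1 lowest in both classes, but next below control 2 stood the library labelled shDdr2 2 for the GTPases and, on this scale, that labelled shDdr2 3 for the effectors. By summed CPM the effectors stood at 476 in the library labelled shDdr2 2 and 446.5 in that labelled shDdr2 3, so their order between these tumours depends on the measure.

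The contrast between those tumours ran through the GTPase class. The library labelled shDdr2 2 exceeded that labelled shDdr2 3 in 8 of 8 GTPase genes, by a median of 3.63-fold. It did so in 9 of 19 effectors, and 52.9% of all genes were higher in it. Likewise, control 3 exceeded the library labelled shDdr2 3 in 8 of 8 GTPase genes and in 3 of 19 effectors. The GTPase mean minus the effector mean was 1.37, 2.40 and 0.20 log2 units in the libraries labelled shDdr2 1 to 3, against -0.26, 1.90 and 1.62 in control 1 to 3. It averaged 1.33 ± 1.10 in the tumours labelled shDdr2 and 1.09 ± 1.18 in controls (SD, n = 3 each), a difference of 0.24 that was small beside the spread within the groups. Its sign and size rested on single tumours, and it became -0.43, 0.65 and 0.51 when control 1, 2 or 3 was left out. Leaving out number 2 of the libraries labelled shDdr2 gave -0.30, and leaving out number 3 gave 0.80.

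Neither class mean separated the groups. For the effectors it was 4.02 ± 0.270 in the tumours labelled shDdr2 and 4.03 ± 0.783 in controls (log2 CPM, SD, n = 3 each), a difference of -0.01. For the GTPases it was 5.35 ± 0.987 and 5.12 ± 1.85, a difference of 0.23. The fitted log2 fold changes of the GTPase genes had a median of -0.16, with 7 of 8 lower in the libraries labelled shDdr2. The median of the fits and the difference of log means thus had opposite signs. On voom weights 8 of 8 were higher, and with the replicate number as a block 7 of 8 were higher. Leaving out 1 tumour moved the GTPase difference to between -0.75 (without control 1) and 1.07 (without control 2), and that of the effectors to between -0.31 and 0.42 for the same tumours.

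**Figure D4:**
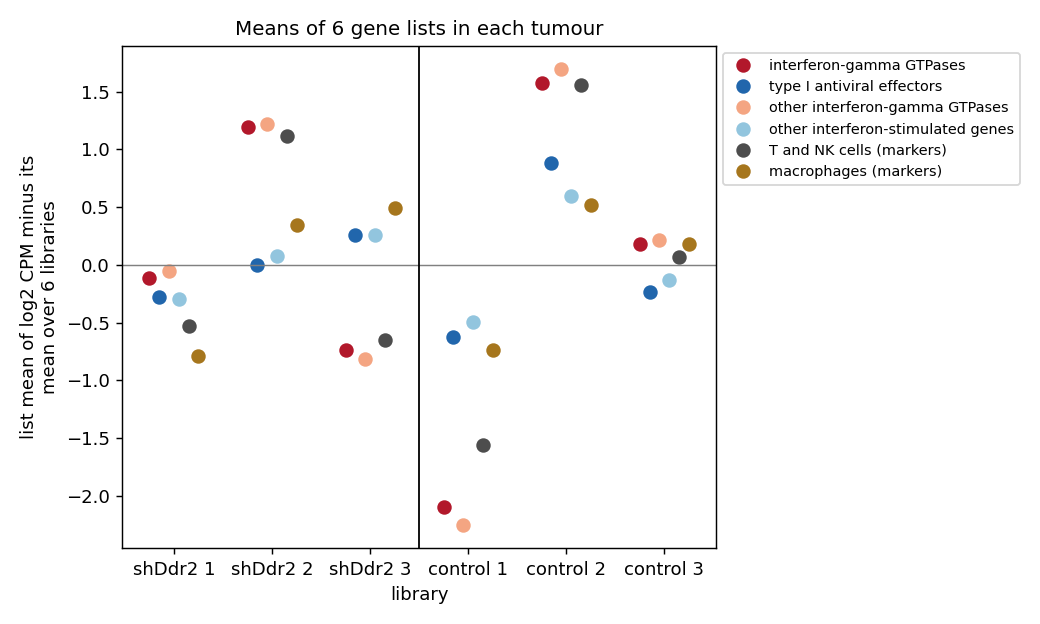
List means of log2 CPM minus their mean over the 6 libraries (y axis) in each library (x axis), with tumours labelled shDdr2 left of the line and controls right of it, and 1 point per list. In control 1 the 8 GTPase members lie at -2.10, the T and NK cell markers at -1.56 and the antiviral effectors at -0.63; in control 2 they lie at 1.58, 1.55 and 0.88.

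The transcription factors and sensors had narrower ranges in the median gene, where the highest tumour was 2.91 and 2.64 times the lowest. Among the sensors Zbp1 was an exception, at 7.88 times. Irf1 (Entrez 16362, chromosome 11, 53770014 to 53778374, plus strand), the factor induced by interferon gamma through a GAS, stood at 101, 146 and 73.9 CPM in the libraries labelled shDdr2 1 to 3, against 66.1, 193 and 111 CPM in control 1 to 3. This is the tumour order of the GTPase class. Stat2 (Entrez 20847, chromosome 10, 128270559 to 128292849, plus strand), which is specific to type I and type III interferon signalling, stood at 25.5, 57.7 and 48.5 CPM, against 28.4, 81.6 and 38.3 CPM. All 4 factors, with Irf7 and Irf9, were highest in control 2, and 0 of 4 had a higher fitted value in the libraries labelled shDdr2.

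Zbp1 (Entrez 58203, chromosome 2, 173206612 to 173218923, minus strand), a sensor of Z-form nucleic acid that can start necroptosis, varied most among the sensors. It stood at 9.32, 16.7 and 16.5 CPM in the libraries labelled shDdr2 1 to 3, against 4.64, 36.6 and 11.9 CPM in control 1 to 3. Trim25 (Entrez 217069, chromosome 11, 88999376 to 89020293, plus strand), the ubiquitin ligase that activates RIG-I, was nearly level at 118, 133 and 139 CPM, against 131, 145 and 122 CPM. Its means were 129.8 ± 11.1 and 133 ± 11.4 CPM (SD, n = 3 each), and the 95% interval of its log2 fold change ran from -0.46 to 0.40. The RNA helicase genes Ddx58 (RIG-I), Ifih1 (MDA5) and Dhx58 (LGP2) spread by 2.43, 2.75 and 2.64 times between tumours.

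In the ADP-ribosylation and ubiquitin complex, Parp14 (Entrez 547253, chromosome 16, 35832874 to 35871544, minus strand), a mono-ADP-ribosyltransferase, stood at 24.0, 84.8 and 55.4 CPM in the libraries labelled shDdr2 1 to 3, against 31.8, 98.5 and 59.97 CPM in control 1 to 3. Parp9 (Entrez 80285, chromosome 16, 35938470 to 35972605, plus strand), which works with the ubiquitin ligase Dtx3l, stood at 74.1, 81.5 and 49.6 CPM, against 53.5, 91.0 and 58.3 CPM. Parp9 and Dtx3l are neighbours whose annotated exons overlap on opposite strands. Dtx3l was lowest in the library labelled shDdr2 1, and Parp9 in that labelled shDdr2 3.

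Per kilobase of annotated exon, the most abundant members were Bst2, the tetherin that holds virions at the cell surface, at 77.8 mean CPM per kb over the 6 tumours, and Gbp2 at 68.1. Mx2 was lowest, at 0.853 CPM per kb. The median level was 12.1 CPM per kb in the GTPase class and 5.26 in the antiviral effectors. These levels are on a length-scaled axis and do not compare the groups.

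Outside the set, 87 further genes of the interferon pathway were tested, and 0 were called in either direction. Their median log2 fold change was -0.03, with 37 higher and 50 lower values in the libraries labelled shDdr2. Groups did not overlap for 1 of the 87 on the lower side, against 2.11% of all genes, and for 0 on the higher side, against 2.21%. That gene was Ifi204, a DNA-sensing protein of the p200 family, which stood at 52.6, 35.3 and 44.8 CPM in the libraries labelled shDdr2 1 to 3, against 53.1, 62.1 and 62.9 CPM in control 1 to 3. Its log2 fold change was -0.42 (SE 0.22), with an edgeR p of 0.0883 before adjustment. Of the 12 genes listed as interferon ligands and related cytokines, 2 were tested, Il15 and Il18, and neither is an interferon. No interferon gene of the list was thus tested, and those for interferon gamma and beta are not analysed here. Il18, a cytokine that induces interferon gamma in lymphocytes, stood at 10.8, 1.80 and 5.91 CPM, against 7.34, 3.64 and 1.70 CPM.

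The receptor and feedback genes were more even. Ifngr2, the signalling chain of the interferon gamma receptor, stood at 94.0, 98.1 and 85.3 CPM in the libraries labelled shDdr2 1 to 3, against 112, 118 and 92.1 CPM in control 1 to 3. Among feedback inhibitors, Socs3, which blocks Jak kinases, stood at 54.95, 63.5 and 75.3 CPM, against 54.04, 87.3 and 73.8 CPM. Sting1, the adaptor of cytosolic DNA sensing, was on another list, that of upstream sensing. It stood at 54.3, 73.6 and 68.2 CPM, against 70.3, 96.1 and 83.5 CPM, with a log2 fold change of -0.35 (SE 0.21).

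Other interferon gamma targets had the same wide spread. Of the 9 other interferon gamma GTPase genes tested, 9 were lowest in control 1. Tgtp1, one of them, stood at 45.6, 129 and 7.41 CPM in the libraries labelled shDdr2 1 to 3, against 3.40, 161 and 46.3 CPM in control 1 to 3. Gbp8 stood at 2.67, 7.89 and 2.99 CPM, against 1.40, 13.4 and 3.77 CPM. The chemokine Cxcl9, a target of interferon gamma that attracts T cells, stood at 73.9, 109 and 9.41 CPM, against 2.16, 192 and 48.7 CPM. Cxcl11, which GENCODE annotates as a polymorphic pseudogene, was scarce, at 2.02, 1.41 and 0.0574 CPM, against 0.485, 5.74 and 1.32 CPM. Cxcl9 spread by 89.0 times between control tumours, and 0 of these genes were called between the groups.

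Other antiviral genes were steadier. Among the 37 other interferon-stimulated genes tested, the highest tumour was 2.62 times the lowest for the median gene. Samhd1, which depletes nucleotides that viruses need, stood at 137, 273 and 166 CPM in the libraries labelled shDdr2 1 to 3, against 105, 264 and 187 CPM in control 1 to 3. Ifi27l2a, a gene strongly induced by type I interferon, stood at 18.4, 10.1 and 18.03 CPM, against 9.98, 14.2 and 10.9 CPM.

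Lymphocyte markers were scarce, and their mean log2 CPM took the tumour order of the GTPase class. Of 9 T and NK cell markers, 6 were tested, each with at least 1 count in every library, while Cd3e, Ncr1 and Prf1 are not analysed here. The 6 summed to 7.94, 27.0 and 8.67 CPM in the libraries labelled shDdr2 1 to 3, against 4.15, 34.6 and 13.9 CPM in control 1 to 3. Their mean log2 CPM was 0.39, 2.04 and 0.27, against -0.63, 2.48 and 1.00, and numbers 1 and 3 of the libraries labelled shDdr2 change places between the measures. Cd8a stood at 1.08, 8.57 and 0.517 CPM, against 0.701, 10.3 and 3.27 CPM. Cd4 had another order, at 1.01, 4.92 and 4.25 CPM, against 1.67, 4.36 and 2.95 CPM. The 7 macrophage markers summed to 236, 511 and 548 CPM, against 239, 609 and 462 CPM, an order that keeps control 2 highest but puts the library labelled shDdr2 3 second. The 6 fibroblast markers summed to 635, 2290.2 and 6609.5 CPM, against 1479, 2712 and 3356 CPM. The part of these cell types in the spread of the members was not tested.

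Values of several members are uncertain because the strand setting and the treatment of shared reads could not be taken from the labels. Exons of 15 of the 39 members overlap another annotated gene, among them Igtp and Irgm2 on the same strand. Close copies exist for others, such as Ifit3 with Ifit3b, Oas1a with Oas1g, Tgtp1 with Tgtp2, and the Gbp genes among themselves.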

How the data were processed

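Messenger RNA of 6 tumours, captured on poly-T beads, was sequenced, per the labels' protocols. The authors deposited whole-number counts per Entrez gene, for genes with at least 1 count in every library, and log2 values. Those were recomputed as log2(count/factor + 1), with a factor for each library; the reverse step returned a whole number (tolerance 0.05) for 100% of values, 17 of them unequal to the count. Per the submitters' processing notes, RSEM 1.2.31, Bowtie2 2.1.0, limma and GRCm38.p5 were used, with roles not given in the sources used here, so the counts may be rounded estimates.

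Symbols came from the RefSeq table of GRCm38.p6 (14876 of 15295 numbers matched), coordinates and exon lengths from GENCODE M21 (GRCm38). Counts were filtered with filterByExpr, scaled by TMM and compared, 3 libraries labelled shDdr2 against 3 controls, with robust quasi-likelihood F tests of edgeR 4.0.16 in R 4.3.3 (threshold 0.05 after Benjamini-Hochberg adjustment over 14498 genes). The common biological coefficient of variation was 35.3%. List means of log2 CPM (prior count 2) were not tested. Alternatives used DESeq2 1.42.0, limma 3.58.1, other filters and scalings, left-out libraries and the replicate number as a block. Replicate numbers come from the titles. Deviations of same-numbered libraries from their group means correlated across genes with r of 0.299, 0.267 and 0.253, all over the 0.1 set for treating them as pairs, while other pairings gave -0.381 to 0.254. Libraries of 1 group did not agree within counting noise (chi-square over its degrees of freedom was 26.1 to 242).

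The members and lists were chosen with earlier results of these data known. Values per library are given for the member of each role with the highest mean CPM, the smallest p and the largest SD. They are also given for Ddr2 and for the pathway genes with the smallest p or highest mean CPM per list. Isg15, Ifit3, Igtp, Rsad2 and the other genes named were chosen after their values were seen. A gene of the pathway lists that this rule names is not reported here.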

Additional observations from a re-analysis of the deposited data

How the results depend on the processing

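Of the 39 members, 0 were called under any of the 13 alternatives, and of all genes 0 were called except by DESeq2, which called 40. With the replicate block 0 genes and 0 members were called. The 3 list differences moved by less than the pooled SD within groups under every alternative. Under DESeq2 that of the GTPases was -0.17 and that between the classes -0.053. With 3 libraries per group, leaving out 1 can hardly move a difference by more than that SD. Those fits therefore do not show that the differences are stable. With 1 library left out, the difference between the classes ran from -0.43 to 0.80, that of the GTPases from -0.75 to 1.07 and that of the effectors from -0.31 to 0.42. Of 364 alternative log2 fold changes of the 28 named genes, 0 were called and 68 changed sign; the cause was not tested. On voom weights these were 0.079 for Gbp2, 0.14 for Gbp3, 0.88 for Iigp1, 0.17 for Zbp1, 0.0010 for Gbp8, 0.31 for Tgtp1, 0.68 for Cxcl9, 0.040 for Isg15 and 0.29 for Igtp. On the deposited log2 values they were 0.075 for Gbp2, 0.11 for Gbp3, 0.83 for Iigp1, 0.11 for Zbp1, 0.25 for Tgtp1, 0.62 for Cxcl9, 0.050 for Isg15 and 0.25 for Igtp. With the replicate block they were 0.088 for Gbp3, 0.46 for Iigp1, 0.11 for Zbp1, 0.033 for Tgtp1, 0.072 for Isg15 and 0.16 for Igtp. With 1 library left out the log2 fold changes ran from -1.26 to 0.98 for Gbp2, -0.76 to 0.84 for Gbp3, -0.87 to 1.22 for Iigp1, -0.085 to 0.25 for Ifi35, -0.40 to 1.04 for Oasl2, -0.49 to 0.27 for Irf1, -0.44 to 0.40 for Stat2, -0.086 to 0.037 for Trim25, -0.76 to 0.78 for Zbp1, -0.13 to 0.29 for Parp9, -0.67 to 0.25 for Parp14, -0.14 to 1.22 for Il18, -0.31 to 0.013 for Socs3, -0.29 to 0.39 for Samhd1, -1.13 to 0.81 for Gbp8, -1.41 to 1.29 for Tgtp1, -1.72 to 0.36 for Cxcl11, -0.96 to 1.33 for Cxcl9, -0.28 to 0.71 for Ddr2, -0.36 to 0.56 for Isg15, -1.06 to 0.70 for Ifit3, -1.12 to 0.98 for Igtp and -1.21 to 0.067 for Rsad2. The 3 libraries per group limit what could be detected, as the intervals of the members show.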
